A study of Homo sapiens with 18 samples.

Results

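The genes described here are 10 negative regulators of MAP kinase signalling, grouped as ERK feedback genes. The group holds the dual-specificity phosphatases DUSP1, DUSP2, DUSP4, DUSP5, DUSP6 and DUSP10, the Sprouty genes SPRY1 and SPRY2, and the Spred genes SPRED1 and SPRED2. They are set by symbol, with no measured value in the rule though with earlier results of these data known, and all 10 had a row among the 56609 gene symbols of the count table. The libraries came from the RNA of 3 EBV-positive cell lines, HG3, MEC2 and PCL12, derived from chronic lymphocytic leukemia (CLL), a leukemia of mature B cells. HG3 and PCL12 carry unmutated and MEC2 mutated IGHV genes. The stimulated cells of each line received the CpG oligonucleotide ODN-2006, a class B agonist of the endosomal DNA receptor TLR9, at 2.5 μg/ml for 4 h, and the unstimulated cells of the same line were the controls. There were 3 stimulated and 3 unstimulated libraries per line, 18 in all.

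In B cells, TLR9 signals through MyD88 to NF-κB and to the MAP kinases ERK, p38 and JNK. ERK activity is commonly followed by transcription of its own inhibitors, so that mRNAs of this group are widely used as a readout of ERK output. DUSP1, DUSP2, DUSP4 and DUSP5 encode nuclear phosphatases that remove the activating phosphates from MAP kinases, and DUSP6 encodes a cytoplasmic phosphatase selective for ERK. DUSP10 acts mainly on p38 and JNK, although it is counted among the ERK feedback genes here. Sprouty proteins hold back the route from receptors to RAF, and Spred proteins bring the RAS inhibitor neurofibromin to the membrane. The comparison of stimulated with unstimulated cells therefore asks whether this arm moved with TLR9 engagement, and the comparison of unstimulated lines asks how much of it each line carried.

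Library totals ran from 20382943 to 67308932 counts, so that 3 counts, used as the detection floor, corresponded to 0.0429 to 0.155 CPM, the count scaled to the TMM-adjusted library total. The B cell genes MS4A1, CD79A, CD79B, PAX5, CD22 and BLNK were each above 1 CPM in every library. CPM of these and the other cell type markers were scaled to library totals without TMM factors. CD5, a surface marker of CLL, lay between 21.8 and 64.7 CPM in HG3 and between 0 and 0.417 CPM in MEC2. In PCL12 it lay between 0.0949 and 1.38 CPM. FCER2, which encodes CD23, was the other CLL surface marker followed and was abundant in all lines. It lay between 1443 and 2966 CPM in HG3, 285 and 516 CPM in MEC2, and 310 and 752 CPM in PCL12. Summed T cell, myeloid, NK and red cell or platelet markers reached at most 2.42, 1.87, 4.29 and 0.238 CPM. NFKBIZ, an NF-κB target, served as a check of the stimulus, and its level rose from 28.5 ± 7.16 to 130 ± 38.3 CPM in MEC2 (SD, n = 3; log2 change 2.20, edgeR quasi-likelihood adjusted p = 0.0154). In PCL12 its log2 change was 1.71 (edgeR adjusted p = 0.541) and in HG3 it was 0.66 (edgeR adjusted p = 1.00).

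Libraries that stood apart bear on several values below. The share of mitochondrial transcripts was 20.2% in HG3 replicate 2 without CpG and 19.7% in MEC2 replicate 2 with CpG, while the remaining libraries held 2.82% to 9.28%. PCL12 replicates 2 and 3 also held transcripts that were abundant in MEC2 and scarce in PCL12 replicate 1. Of 48 genes picked because they were abundant in MEC2 and scarce in PCL12 replicate 1, the median level in PCL12 replicates 2 and 3 was 27.6% to 30.4% of that in MEC2, against 2.32% and 2.36% in the replicate 1 libraries by which they were picked. The 48 genes were not compared with HG3, so their transcripts are not shown to be particular to MEC2. How those transcripts came to be there was not tested, and values without these libraries stand beside the results that they move most. As these are bulk samples, fewer cells expressing a gene and less RNA per cell cannot be told apart.

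No ERK feedback gene changed past the threshold after 4 h of CpG. A gene was called when its nominal P was under 0.01 and its log2 fold change at least 1 in size, and 0 of the 10 genes were called in HG3, MEC2 or PCL12, or in the mean response of the 3 lines. Among all 31872 tested genes the same rule called 0.496%, 0.251%, 0.116% and 0.527%, so a count of 0 among 10 is what the background alone gives and is read only together with the intervals below. At an unadjusted P under 0.05 the number was also 0 of 10 in each of these comparisons, beside 3.73%, 2.46%, 2.09% and 4.04% of all tested genes. With the replicate number as a block 0 of 10 were called as well, where the rule called 0.731%, 0.555%, 0.242% and 0.449% of all genes, and DESeq2 and limma-voom called 0 of 10 too, where DESeq2 called 0.788%, 0.436%, 0.166% and 0.377% and limma-voom 0.882%, 0.477%, 0.649% and 0.562% of all genes. The median log2 change of the 10 genes was 0.11 in HG3, -0.01 in MEC2 and 0.05 in PCL12, beside medians of 0, 0 and 0.02 over all tested genes.

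Among the nuclear phosphatases, DUSP2, an early gene of activated lymphocytes, was measured at 178, 244 and 378 CPM in the stimulated HG3 replicates 1, 2 and 3. The unstimulated HG3 replicates stood at 169, 258 and 384 CPM. In MEC2 the stimulated values were 279, 225 and 65.9 CPM and the unstimulated values 225, 205 and 58.2 CPM. In each of these 6 pairs the 2 members lay within 0.31 of each other on the log2 scale, and the groups overlapped. In PCL12 DUSP2 was at 105, 214 and 90.8 CPM with CpG and at 140, 202 and 63.0 CPM without. The log2 change over the 3 lines was 0.07 ± 0.35 (SE, edgeR adjusted p = 1.00), and 6 of 9 pairs were higher after CpG.

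DUSP4, whose product acts on ERK and JNK in the nucleus, was at 107, 138 and 347 CPM in stimulated HG3 and at 99.8, 66.2 and 349 CPM in unstimulated HG3. In MEC2 it was at 187, 127 and 90.1 CPM with CpG and at 168, 169 and 98.0 CPM without. In PCL12 the stimulated values of 179, 169 and 162 CPM were all above the unstimulated values of 141, 161 and 146 CPM. This was the only 1 of 30 combinations of gene and line in which the groups did not overlap (two-sided exact permutation p = 0.1, which 3 against 3 cannot go below). Of all tested genes, 2.53% were separated upwards and 2.02% downwards in PCL12, 2.52% and 2.2% in MEC2, and 2.14% and 1.59% in HG3. The log2 change of DUSP4 in PCL12 was 0.18 (95% interval -0.91 to 1.28).

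DUSP5, a phosphatase specific for ERK, gave almost the same value in both members of most pairs. In HG3 the pairs were 96.6 with and 96.5 CPM without CpG, 82.6 and 58.9 CPM, and 236 and 231 CPM. In MEC2 they were 125 and 110 CPM, 83.9 and 109 CPM, and 27.5 and 27.2 CPM. In PCL12 they were 212 and 233 CPM, 184 and 182 CPM, and 85.8 and 77.1 CPM. The replicates of 1 line thus differed several times over while the stimulus moved DUSP5 little, and the log2 change over the 3 lines was 0.00 ± 0.41 (SE).

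DUSP1, an immediate early gene whose product acts on p38, JNK and ERK, was low in all lines. In HG3 it was at 2.96, 3.75 and 11.9 CPM with CpG and at 2.26, 4.90 and 9.24 CPM without. The MEC2 values were 4.20, 3.69 and 3.66 CPM with CpG and 3.84, 4.12 and 1.60 CPM without, and the PCL12 values 4.82, 5.64 and 2.16 CPM with and 6.86, 3.49 and 3.46 CPM without. The groups overlapped in each line, with 5 of 9 pairs higher after CpG. The promoter of DUSP1 is shown because it was the only 1 of the 8 promoters matched that held the letters of a cAMP response element, TGACGTCA, which 1.98% of 27305 RefSeq promoters of this length hold. The 300 bases shown reach from upstream to just past the start of the gene (RefSeq, GRCh38.p14, chr5:172771146-172771445, minus strand), with that element in capitals.
DUSP1: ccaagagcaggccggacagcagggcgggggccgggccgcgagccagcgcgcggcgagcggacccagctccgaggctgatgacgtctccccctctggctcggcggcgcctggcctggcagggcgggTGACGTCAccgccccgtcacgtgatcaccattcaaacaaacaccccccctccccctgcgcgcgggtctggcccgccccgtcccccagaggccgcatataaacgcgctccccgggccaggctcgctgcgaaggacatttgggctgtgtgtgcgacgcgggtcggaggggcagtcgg

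DUSP6, the cytoplasmic ERK phosphatase that serves in many tissues as the standard mRNA readout of ERK, was low in all lines, at 4 to 152 counts per library. Its values were 1.86, 2.60 and 1.55 CPM in stimulated and 0.0879, 7.43 and 1.13 CPM in unstimulated HG3. MEC2 had 3.58, 1.55 and 1.12 CPM with CpG and 1.98, 6.21 and 1.28 CPM without, and PCL12 had 1.04, 0.824 and 2.39 CPM with and 1.60, 0.428 and 0.696 CPM without. Pairs pointed in both directions in every line, by up to 3.72 on the log2 scale. The interval for the log2 change over the 3 lines ran from -1.24 to 0.94 without and from -0.43 to 1.12 with the replicate block. Without the HG3 library with 20.2% mitochondrial counts the change went from -0.15 to 0.60 over the 3 lines and from -0.51 to 1.76 in HG3, neither of them called.

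DUSP10, whose replicates lay close together in HG3 and MEC2, was measured at 123, 107 and 127 CPM in stimulated HG3 and at 109, 79.9 and 120 CPM in unstimulated HG3. MEC2 had 36.9, 30.1 and 29.2 CPM with CpG and 29.6, 33.2 and 30.7 CPM without, and PCL12 had 11.7, 21.4 and 13.0 CPM with and 7.28, 15.6 and 14.8 CPM without. The 3 lines formed separate levels that did not overlap, and stimulated and unstimulated values overlapped within each. The log2 change over the 3 lines was 0.18 ± 0.16 (SE, 95% interval -0.15 to 0.50).

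Of the Sprouty genes, SPRY1 stayed at or under 1.82 CPM in every library and had 0 counts in 2 HG3 libraries, which allows up to 0.0946 CPM in stimulated replicate 3 and 0.155 CPM in unstimulated replicate 2. SPRY2 was at 28, 34.1 and 43.5 CPM in stimulated HG3 and at 31.7, 15.7 and 49.2 CPM in unstimulated HG3. In MEC2 it was at 36.5, 31.6 and 24.1 CPM with CpG and at 48.6, 48.7 and 22.8 CPM without. In PCL12 it was at 0.501, 7.93 and 5.92 CPM with CpG and at 1.19, 7.88 and 4.62 CPM without. The groups overlapped in all lines, and the log2 change over the 3 lines was -0.07 ± 0.44 (SE).

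SPRED1 was at 9.00, 10.6 and 26.2 CPM in stimulated HG3 and at 7.93, 3.61 and 22.9 CPM in unstimulated HG3. All 3 HG3 pairs were higher after CpG, by 0.18, 1.54 and 0.20 on the log2 scale, and the largest came from the unstimulated library with 20.2% mitochondrial counts. With the replicate number as a block the HG3 change was 0.61 (95% interval 0.09 to 1.13, edgeR adjusted p = 1.00), and in the group fit without that library it was 0.01. MEC2 had 25.3, 25.5 and 18 CPM with CpG and 27.8, 25.2 and 19.9 CPM without, and PCL12 had 12.2, 20.6 and 13.5 CPM with and 10.1, 18.2 and 15.1 CPM without. SPRED2 was at 15.6, 12.3 and 18.9 CPM in stimulated and at 10.4, 15.3 and 20.2 CPM in unstimulated HG3, at 13.5, 13.8 and 17.3 CPM and 12.5, 15.1 and 15.1 CPM in MEC2, and at 1.5, 3.25 and 5.03 CPM and 2.50, 2.17 and 4.69 CPM in PCL12. For both Spred genes the stimulated and unstimulated groups overlapped in each line.

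**Figure D1:**
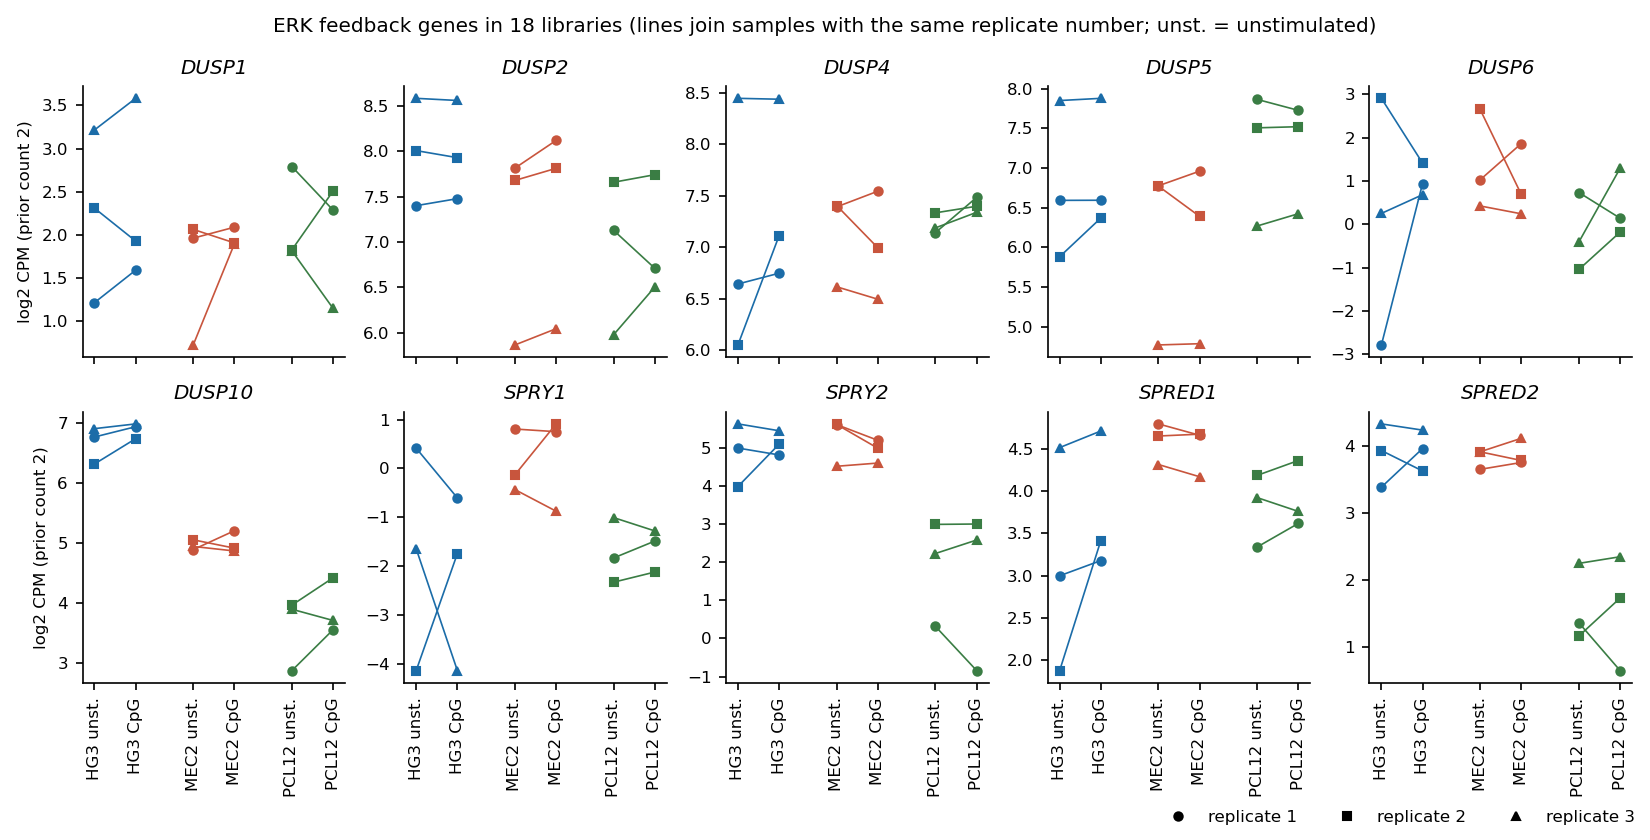
The vertical axis is log2 CPM (prior count of 2) of each ERK feedback gene in 18 libraries, and the horizontal axis gives the line and treatment. Symbols mark the replicate number and lines join the 2 libraries that share it. Replicates of DUSP2 and DUSP5 lie far apart within HG3 and MEC2, most joining lines of DUSP2, DUSP5 and DUSP10 are nearly flat, and PCL12 lies lowest for DUSP10, SPRY2 and SPRED2.

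How large a response the data could still hold was read from the paired ratios and their intervals. For 7 of the genes, those averaging 5 CPM or more (DUSP2, DUSP4, DUSP5, DUSP10, SPRY2, SPRED1 and SPRED2), 53 of 63 pair ratios were within 0.5 and 59 within 1 of 0 on the log2 scale. The other 4 were those of DUSP4 (1.06), SPRY2 (1.11) and SPRED1 (1.54) in HG3 pair 2, which holds the library with 20.2% mitochondrial counts, and SPRY2 in PCL12 pair 1 (-1.16). With the replicate block the 95% interval of the log2 change over the 3 lines was -0.14 to 0.32 for DUSP2, -0.08 to 0.38 for DUSP4, and -0.19 to 0.27 for DUSP5. It was -0.05 to 0.43 for DUSP10, -0.36 to 0.19 for SPRY2, -0.09 to 0.50 for SPRED1, and -0.31 to 0.38 for SPRED2. None of these 7 intervals reached 1, a 2-fold change. Within single lines, SPRED1 in HG3 reached it with the block (0.09 to 1.13), and without the block DUSP2, DUSP4, DUSP5, SPRY2 and SPRED1 had intervals that reached 1 in size in each line, as for SPRY2 in MEC2 (-2.00 to 1.24), while DUSP10 and SPRED2 had none. The block left 6 residual degrees of freedom, and its intervals rest almost wholly on the spread of other genes. They can thus be narrower than a gene's own pairs allow. In HG3, SPRY2 had a block interval of -0.23 to 0.71 with pairs of -0.18, 1.11 and -0.18. DUSP4 there had -0.02 to 0.79 with pairs of 0.10, 1.06 and -0.01. A block interval short of 1 therefore does not exclude a 2-fold change in a single line. Without the block the intervals over the 3 lines were wider. That of SPRY2, from -1.01 to 0.88, reached a 2-fold fall, while that of DUSP5 ran from -0.89 to 0.90.

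**Figure D2:**
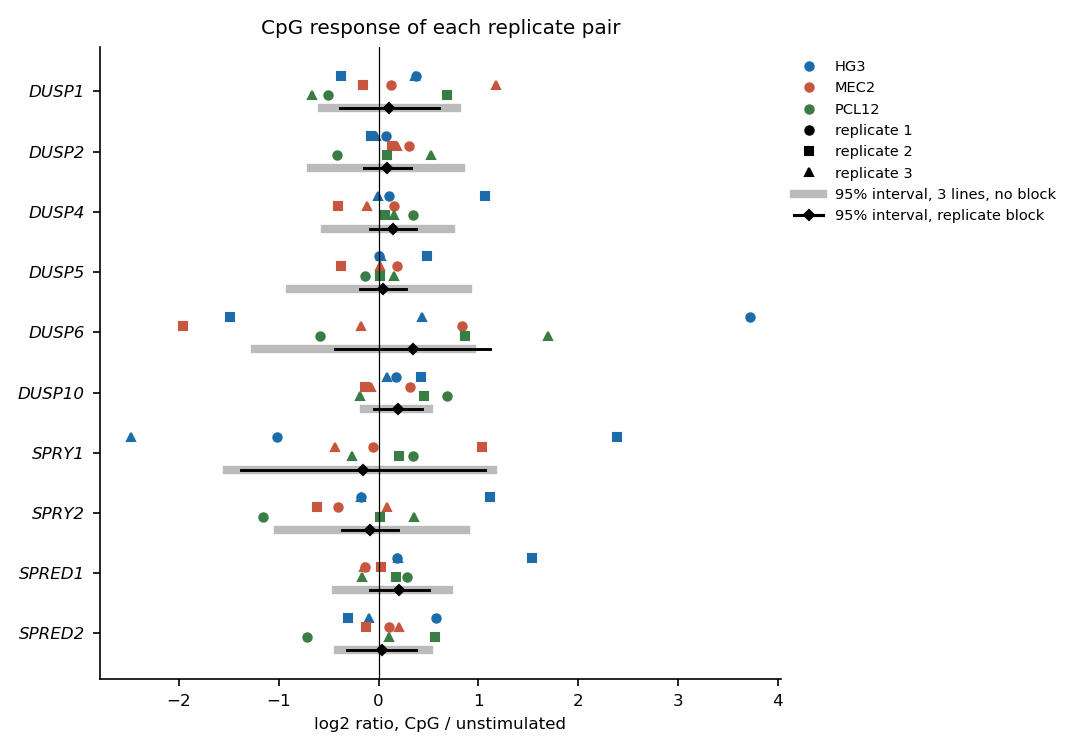
Each point on the horizontal log2 axis is 1 replicate pair, the CPM with CpG over that without, with the line in colour and the replicate number as a symbol. Bars under the points are 95% intervals of the mean response of the 3 lines, grey from the fit of group means and black from the fit with the replicate block. Points of DUSP2, DUSP5 and DUSP10 gather near 0, and those of DUSP6 and SPRY1 spread from -2.49 to 3.72.

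The call was sensitive to 1 library. Without unstimulated HG3 replicate 3, the highest unstimulated HG3 library for DUSP4 (349 CPM) and SPRED1 (22.9 CPM), both genes passed the threshold in HG3, at log2 changes of 1.25 and 1.39 (edgeR adjusted p = 0.742 for both), where 0.974% of all genes were called. This setting sets stimulated replicate 3, which was as high, against the lower unstimulated replicates alone. The difference in response between lines was tested directly, and 0 of 10 genes had an adjusted p under 0.05 for MEC2 against HG3, PCL12 against HG3 or MEC2 against PCL12, where 0%, 0.00314% and 0% of all tested genes passed. With the block it was 0 of 10 as well, beside 0.141%, 0.069% and 0.0126% of all genes, and DESeq2 and limma-voom called 0 of 10 and 0 of all genes. At an unadjusted P under 0.05 it was 0 of 10 again, beside 4.1%, 4.16% and 3.23% of all genes. With PCL12 replicate 1 alone, 0 of 10 genes and 0.263% of all genes were called in PCL12, the lone pair being assumed to vary like the other groups. Without the 2 libraries rich in mitochondrial counts, 0 of 10 were called in HG3 and in MEC2, beside 0.339% and 0.211% of all genes.

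For most of the higher genes, replicates of a line differed more than the members of a pair. In 19 of 21 combinations of the 7 higher genes with a line, the range of the 3 unstimulated replicates exceeded the largest pair ratio, with medians of 1.10 and 0.42 on the log2 scale. A further share was taken after the mean CpG response of each line was removed, so it does not measure the stimulus. It sets the spread between replicate numbers against the spread of the pair ratios around their line mean. Of this remaining variation of DUSP5 within lines, 98.3% lay between replicate numbers. For DUSP2 it was 97.2%, for DUSP4 92.2% and for SPRY2 91.4%. SPRED1 had 88.5%, DUSP1 82.9%, DUSP10 80.1%, SPRED2 77.4% and DUSP6 55.9%. Over all genes of at least 1 CPM the median was 69.7% and the middle 50% ran from 55.3% to 81.4%, so 6 of these 9 genes lay above that range. In HG3 and MEC2 alone, which leaves out PCL12 and its unlike replicates, DUSP2, DUSP5, DUSP4, SPRED1 and DUSP1 were at 99.8%, 98.1%, 92.5%, 88.1% and 87.5%. There SPRY2 was at 73.1%, DUSP10 at 69.9%, SPRED2 at 68.5% and DUSP6 at 56.4%, within the middle 50% of all genes (52.2% to 81.9%, median 68.6%), so 5 of the 9 genes lay above it. HG3 replicate 3 was above the mean of its line for 8 of 10 genes, and MEC2 replicate 3 was above it for 1 of 10.

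**Figure D3:**
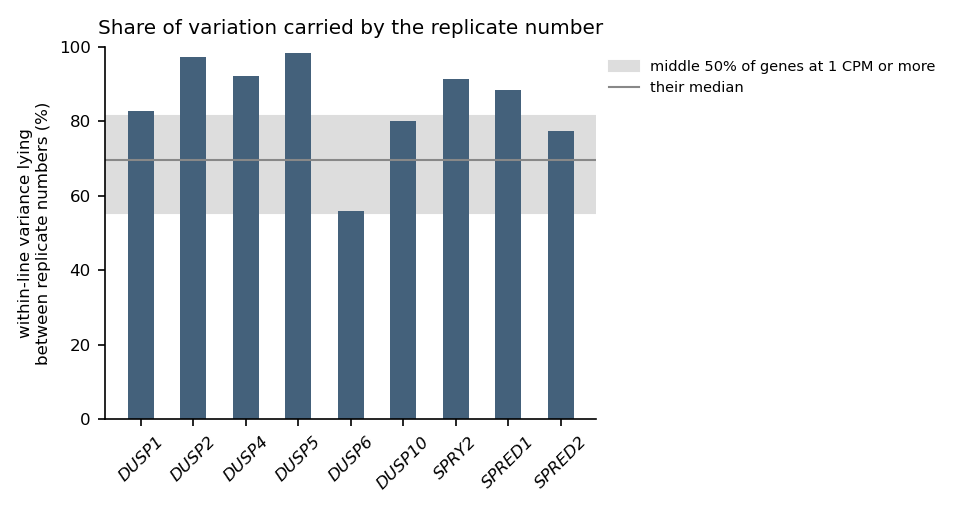
Bars give, for each of 9 ERK feedback genes, the percent of variance of log2 CPM within cell lines that lay between replicate numbers. The mean CpG response of each line was removed first, so the bars do not measure the stimulus. SPRY1, under 1 CPM on average, is left out. The grey band is the middle 50% of all genes of at least 1 CPM, 55.3% to 81.4%, and the line their median of 69.7%. DUSP5, DUSP2, DUSP4 and SPRY2 stand highest.

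Without stimulus the lines differed in DUSP10 and SPRED2 and, in a call that depended on the setting, in SPRY2. A gene was called here at an adjusted p under 0.05 and a log2 difference of at least 1. In PCL12 against HG3, 3 of 10 genes were called, all lower, where 8.71% of all tested genes were called and 4.2% were lower. In MEC2 against HG3 it was 1 of 10, where 8.93% of all were called, and in MEC2 against PCL12 it was 2 of 10, where 1.98% were called. DUSP1, DUSP2, DUSP4, DUSP5, DUSP6, SPRY1 and SPRED1 did not pass in any pair of lines, although their 95% intervals were wide. The interval of SPRED1 for MEC2 against HG3 left out 0 (log2 difference 1.08, 95% interval 0.08 to 2.07, edgeR adjusted p = 0.189), and the difference was 0.68 without unstimulated HG3 replicate 2, which is rich in mitochondrial counts. Without unstimulated HG3 replicate 3 it was 2.06 and passed (edgeR adjusted p = 0.00325). DUSP6 in PCL12 against HG3 had a log2 difference of -1.64 with an interval of -3.58 to 0.30, and turned to 0.62 without unstimulated HG3 replicate 2. Without that library the difference of MEC2 from HG3 went from 0.14 to 2.40, which was not called.

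DUSP10, the p38 and JNK phosphatase, was highest in HG3 at 103 ± 20.8 CPM (SD, n = 3), lower in MEC2 at 31.2 ± 1.83 CPM and lowest in PCL12 at 12.6 ± 4.59 CPM. The log2 difference was -1.72 ± 0.28 for MEC2 against HG3 (SE, edgeR adjusted p = 0.000108) and -3.04 ± 0.30 for PCL12 against HG3 (edgeR adjusted p = 5.96e-08), or -3.81 with PCL12 replicate 1 alone. MEC2 exceeded PCL12 by 1.31 ± 0.28 (edgeR adjusted p = 0.00843). Without unstimulated PCL12 replicate 1 the last difference was 1.04 and did not pass (edgeR adjusted p = 0.0862), and against PCL12 replicate 1 alone it was 2.08. The unstimulated values of the 3 lines did not overlap, and only the call of MEC2 against PCL12 needed PCL12 replicate 1.

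SPRED2, which restrains RAS through neurofibromin, was at 15.3 ± 4.87 CPM in HG3 and 14.2 ± 1.45 CPM in MEC2, which did not differ beyond their spread (log2 difference -0.10, 95% interval -0.89 to 0.69). PCL12 had 3.12 ± 1.37 CPM. The log2 difference was -2.28 ± 0.41 for PCL12 against HG3 (SE, edgeR adjusted p = 0.000287) and 2.18 ± 0.40 for MEC2 against PCL12 (edgeR adjusted p = 0.00206). With PCL12 replicate 1 alone these were -2.59 and 2.48, and both passed.

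SPRY2 was at 32.2 ± 16.8 CPM in HG3 and 40.0 ± 14.9 CPM in MEC2, and at 4.56 ± 3.35 CPM in PCL12. PCL12 was lower than HG3 by -2.82 ± 0.81 on the log2 scale (SE, edgeR adjusted p = 0.0434), and MEC2 exceeded PCL12 by 3.13 ± 0.82 (edgeR adjusted p = 0.0782, not called). The difference from HG3 was called in 9 of 16 alternatives, with adjusted p up to 0.137. The difference between MEC2 and PCL12 was called in 6 of 15, among them DESeq2 (adjusted p = 0.00157) and limma-voom (adjusted p = 0.0101). Within PCL12, replicate 1 had 1.42% of the mean MEC2 level with CpG and 3.35% without, replicate 2 had 22.4% and 22.3%, and replicate 3 had 16.7% and 13.1%. SPRY2 was itself 1 of the 48 genes picked for their MEC2 level, so these percentages are a description. Against PCL12 replicate 1 alone the log2 differences were -4.75 for PCL12 against HG3 and 5.04 for MEC2 against PCL12, likewise a description.

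**Figure D4:**
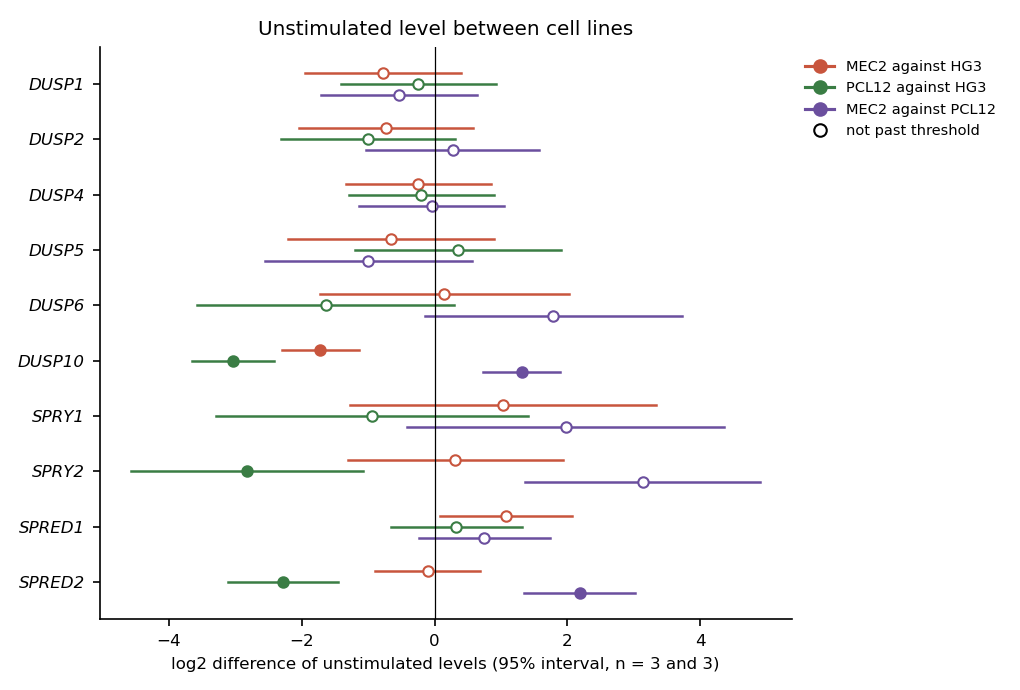
The horizontal axis is the log2 difference of unstimulated levels between 2 lines for each gene, with its 95% interval, and filled points passed the threshold. DUSP10 is lower in MEC2 and PCL12 than in HG3, SPRED2 and SPRY2 are lower in PCL12 than in HG3, and the intervals of the other 7 genes lie mostly across 0.

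**Figure D5:**
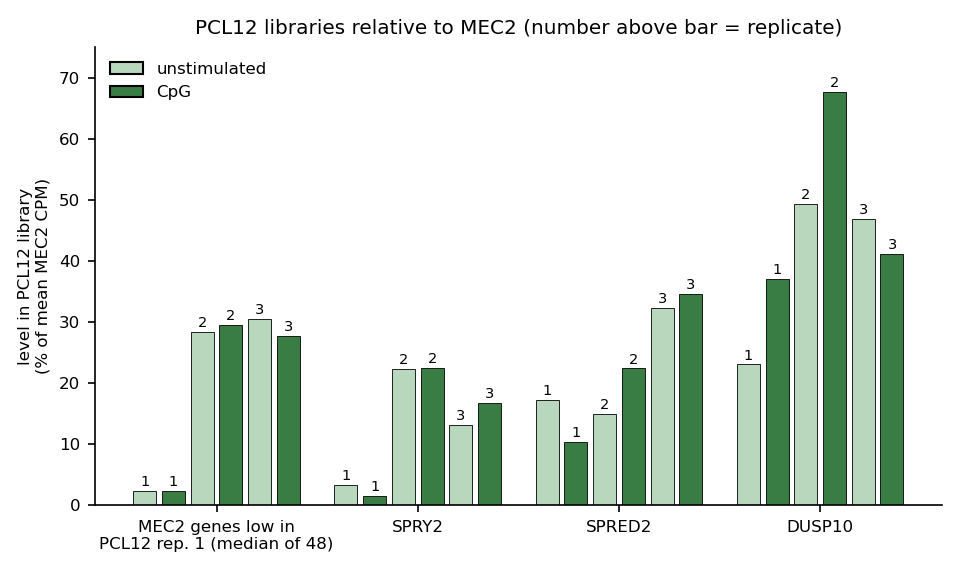
Bars give the level in each PCL12 library as a percent of the mean MEC2 CPM, for the median of the 48 genes picked for their MEC2 level and for SPRY2, SPRED2 and DUSP10, with the replicate number above each bar. SPRY2 is at 1.42% to 3.35% in replicate 1 and at 13.1% to 22.4% in replicates 2 and 3, beside 2.32% to 2.36% and 27.6% to 30.4% for the picked genes.

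The promoters of these 3 genes are shown because they are the members whose level differed between the lines. Letters in capitals match a loose NF-κB pattern on either strand (3 G, 5 free positions and 2 C), which 58.0% of the 27305 RefSeq promoters hold, and overlapping matches run together. The genes span chr1:221701424-221742089 (DUSP10), chr13:80335976-80341126 (SPRY2) and chr2:65310851-65432637 (SPRED2) in GENCODE v44, and the promoter of DUSP10 lies at chr1:221742040-221742339, that of SPRY2 at chr13:80341077-80341376 and that of SPRED2 at chr2:65432550-65432849, all on the minus strand of GRCh38.p14.
DUSP10: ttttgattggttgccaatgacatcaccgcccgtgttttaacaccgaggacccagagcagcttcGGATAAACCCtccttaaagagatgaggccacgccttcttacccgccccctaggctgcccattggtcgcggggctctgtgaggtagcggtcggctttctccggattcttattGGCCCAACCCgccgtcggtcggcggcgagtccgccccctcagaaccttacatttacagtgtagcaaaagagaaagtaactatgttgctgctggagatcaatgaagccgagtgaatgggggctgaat
SPRY2: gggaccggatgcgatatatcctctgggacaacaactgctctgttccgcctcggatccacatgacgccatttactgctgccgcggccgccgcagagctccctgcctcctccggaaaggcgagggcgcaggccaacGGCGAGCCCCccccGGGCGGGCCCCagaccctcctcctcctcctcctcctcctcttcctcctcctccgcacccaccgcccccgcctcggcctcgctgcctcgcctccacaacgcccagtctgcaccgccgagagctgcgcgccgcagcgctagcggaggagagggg
SPRED2: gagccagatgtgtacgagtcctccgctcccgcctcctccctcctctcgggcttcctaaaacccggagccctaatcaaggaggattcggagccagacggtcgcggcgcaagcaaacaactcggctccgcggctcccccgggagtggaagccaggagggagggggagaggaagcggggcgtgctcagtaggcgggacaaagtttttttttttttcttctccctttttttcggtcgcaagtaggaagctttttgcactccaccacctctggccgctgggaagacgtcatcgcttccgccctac

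The pattern was found in the promoters of 6 of the 8 members matched (DUSP1, DUSP2, DUSP6, DUSP10, SPRY2 and SPRED1), with 2 matches in DUSP10, 3 in SPRY2 and 0 in SPRED2. The ETS core CCGGAAG was in 0 of 8, beside 10.7% of all promoters, and the AP-1 letters TGACTCA in 0 of 8, beside 4.92%. A match of letters is a description and not a site. DUSP4 and DUSP5 were not among the promoters used.

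Other genes of the pathway were followed in lists chosen by function. Of 10 further DUSP, SPRY and SPRED genes that were tested, 0 were called by edgeR without the block after CpG in any line. Of 27 genes from GRB2 and RAS to MEK, ERK and the RSK kinases, 0 were called in this fit, although MAP3K8, at 0.98 in MEC2, fell just short of the fold threshold and was called there with limma-voom (1.02) and with no filter (1.00). Of 15 genes of the p38 and JNK arm, 0 were called in this fit. With 0.496%, 0.251% and 0.116% of all genes called in HG3, MEC2 and PCL12, counts of 0 in lists of this size are near the background. Of 14 ERK target genes, among them EGR1, FOS and IER3, 1 was called. This was CCND1, cyclin D1, at 4.73 ± 0.51 CPM with and 11.3 ± 8.71 CPM without CpG in HG3 (SD, n = 3; log2 change -1.24, edgeR adjusted p = 1.00). In MEC2 all 3 pairs were higher after CpG and the groups did not overlap (17.6 ± 3.84 without and 29.3 ± 1.99 CPM with CpG), and in PCL12 all 3 pairs were higher with overlapping groups. Its HG3 pairs gave 0.17, -2.29 and -0.79, and without the unstimulated library rich in mitochondrial counts the change was -0.40. With the replicate block it was -0.97, short of the fold threshold, and the response in MEC2 then exceeded that in HG3 by 1.72 (edgeR adjusted p = 0.00479), a difference with an adjusted p of 1.00 in edgeR without the block and of 0.998 in limma-voom with it. The block instead called DUSP8, at 1.77 in HG3 (edgeR adjusted p = 0.677; 0.79 without the block), where its median was 0 CPM without and 0.393 CPM with CpG, and EGR3, at -1.21 in PCL12 (edgeR adjusted p = 0.0974; -0.88 without the block), where its pairs gave -3.25, 0.08 and -0.59. Neither was called by limma-voom with the block.

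Upstream of ERK, MAP3K8 was higher after CpG in 9 of 9 pairs. It encodes TPL2, the kinase that activates MEK when NF-κB1 p105 is degraded, and MAP3K8, RASGRP1 and NFKB1 are named here after their values were seen. Its level went from 54.3 ± 15.5 to 107 ± 35.5 CPM in MEC2, from 52.9 ± 20.5 to 88.9 ± 29.1 CPM in PCL12 and from 60.1 ± 21.2 to 78.4 ± 18.1 CPM in HG3 (SD, n = 3). The log2 change over the 3 lines was 0.71 ± 0.19 (SE, edgeR adjusted p = 1.00), under the fold threshold. With the replicate block it was 0.71 (95% interval 0.48 to 0.95, edgeR adjusted p = 3.64e-06). RASGRP1, an activator of RAS, had 0.53 with the block (edgeR adjusted p = 0.00908) in 8 of 9 pairs, and NFKB1, the source of p105, had 0.46 (edgeR adjusted p = 0.0298) in 8 of 9 pairs. The HG3 pair with the library rich in mitochondrial counts gave 1.78 for NFKB1, and without the block its change was 0.37 with and 0.23 without that library. In limma-voom with the block the adjusted p was 0.0105 for MAP3K8, 0.465 for RASGRP1 and 0.65 for NFKB1. In edgeR with the block the ERK feedback genes of at least 5 CPM had log2 changes of -0.09 to 0.21. Of all tested genes, 1.69% were higher in at least 8 of 9 pairs.

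Without stimulus, MEC2 and PCL12 differed from HG3 in several of these lists, and 0 genes of the lists were called between MEC2 and PCL12, where 1.98% of all genes were. DUSP22, DUSP14 and DUSP16 were lower in MEC2 than in HG3, at log2 differences of -1.29, -1.69 and -1.63 (edgeR adjusted p = 0.000307, 0.000479 and 0.0043), and DUSP14 was lower in PCL12 at -1.09 (edgeR adjusted p = 0.0226). Of the 10 further DUSP, SPRY and SPRED genes tested, 4 were called in MEC2 against HG3 and 1 in PCL12 against HG3, all lower. Of all tested genes, 8.93% and 8.71% were called. In the cascade, RASGRP3, an activator of RAS in B cells, was at 37.9 ± 11 CPM in HG3, 112 ± 28.6 CPM in MEC2 and 124 ± 14.7 CPM in PCL12 (SD, n = 3), and the differences from HG3 were 1.56 and 1.71 (edgeR adjusted p = 0.000137 and 4.21e-05). RPS6KA2, an RSK kinase under ERK, was higher in MEC2 by 3.11 (edgeR adjusted p = 9.37e-05). In all, 5 of 27 cascade genes were called in MEC2 (4 higher, 1 lower) and 4 of 27 in PCL12 (3 higher, 1 lower), beside 8.93% and 8.71% of all tested genes.

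The ERK targets went in both directions. ETV5, an ETS factor induced by ERK, was higher than in HG3 by 2.51 in MEC2 and 2.15 in PCL12 (edgeR adjusted p = 0.000121 and 0.000633). IER3 was lower by -2.10 and -3.33 (edgeR adjusted p = 0.000335 and 1.6e-06), and PHLDA1 by -2.56 and -2.53 (edgeR adjusted p = 0.000256 and 0.00029). Of 14 targets, 2 were higher and 2 lower in MEC2, and 3 were higher and 2 lower in PCL12, beside the same 8.93% and 8.71% of all genes. In the p38 and JNK arm, MAPK10, which encodes JNK3, was at 37.2 ± 12.9 CPM in HG3 against 0.419 ± 0.158 CPM in MEC2 and 0.373 ± 0.157 CPM in PCL12. MAPK13, a p38 kinase, was lower by -2.41 in MEC2 and -1.46 in PCL12 (edgeR adjusted p = 0.000197 and 0.0176). MAP2K6, a kinase that activates p38, was higher by 2.40 in MEC2 and 3.28 in PCL12 (edgeR adjusted p = 8.81e-06 and 1.4e-07). Of 15 genes of this arm, 1 was higher and 3 lower in MEC2, and 1 was higher and 2 lower in PCL12. With PCL12 replicate 1 alone, RASGRP3 (1.54), ETV5 (2.18), IER3 (-3.68), MAPK10 (-7.55) and MAP2K6 (3.65) were still called against HG3, and DUSP14 (-0.78), PHLDA1 (-2.19) and MAPK13 (-1.88) were not. Comparisons with HG3 share the same HG3 libraries.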

How the data were processed

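Per the labels, RNA was extracted with a Promega ReliaPrep kit and libraries were made with Lexogen Stranded QuantSeq, while the study's methods name a Qiagen kit and a stranded reverse protocol. The submitters' processing notes name FastQC, MultiQC, Trimmomatic, STAR, featureCounts and the build hg38, and the annotation, the strand setting and the handling of duplicates are not given in the sources used here. The authors deposited raw gene counts, 1 table of 56609 symbols by 18 libraries, with every column assigned by its label. If strand was not used, reads of DUSP1 and DUSP6 could not be told from antisense transcripts annotated over them, and SPRED2 overlaps a transcript of its own strand.

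The test was edgeR 4.0.16 (R 4.3.3), run on the 31872 genes whose counts added up to 10 or more, with TMM factors, a mean for each of the 6 groups and robust quasi-likelihood fits (12 residual degrees of freedom). P values were adjusted by Benjamini-Hochberg over all tested genes. CPM are from the deposited counts and TMM factors, with a prior count of 2 for log2 CPM and pair ratios. Those of the cell type markers are scaled to library totals alone. Alternatives were DESeq2 1.42.0, limma-voom (limma 3.58.1), RLE factors, library totals, other filters, the compared lines alone, a replicate block (9 blocks) and each library left out. For each list, called genes are named, up to 3 per pair of lines, and others are marked as named after their values were seen. Members and lists were chosen with earlier results of these data known. Promoters and motif shares used Python 3.11.15.

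The series description says that each replicate comprised 1 stimulated and 1 unstimulated sample, which pairs equal numbers within a line. Deviations from group means correlated between equal numbers 1, 2 and 3 by 0.0928, 0.0579 and 0.203 (HG3), by 0.0285, -0.0785 and 0.327 (MEC2) and by 0.212, 0.149 and 0.216 (PCL12). In MEC2, stimulated replicate 1 correlated best with unstimulated replicate 2 (0.233) and stimulated replicate 2 with unstimulated replicate 1 (0.205), so the MEC2 pair ratios, the block fits and the shares between replicate numbers rest on numbering that the values do not bear out there. As no source says that replicates were separate cultures, P values measure the spread between these samples. Without molecular identifiers, floors cover counting error only.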

Additional observations from a re-analysis of the deposited data

How the results depend on the processing

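The replicate block gave 0 called ERK feedback genes in each line and over the 3 lines, as the fit without it did, and changed no other call on these 10 genes. Counts of called genes stayed within 1.5 times of those reported except in 5 cases. Leaving out 1 library at a time gave 0 to 2 called genes in HG3 after CpG (0.361% to 0.974% of all genes), 1 to 2 in unstimulated MEC2 against HG3 (6.96% to 8.8%) and 1 to 2 in MEC2 against PCL12 (1% to 2.06%). With no filter, 2 genes were called in MEC2 against HG3 (SPRED1 added, at 1.06; 7.92% of all genes) and 4 in MEC2 against PCL12 (SPRY2 and DUSP5 added; 3.05% of all genes). Why the filter moved these was not tested. SPRED1 was also called in MEC2 against HG3 without unstimulated HG3 replicate 3 (2.06). SPRY2 in PCL12 against HG3 lost its call with library totals, with the 2 lines alone, without unstimulated HG3 replicate 1 or 3, without unstimulated PCL12 replicate 1 or 3, and without the libraries rich in mitochondrial counts, and its difference ranged from -2.36 to -3.46 outside the setting with PCL12 replicate 1 alone. No called value changed sign. Library totals in place of TMM factors moved the median of all genes by 0.11 in MEC2 against HG3, 0.15 in PCL12 against HG3 and -0.10 in the difference of response between MEC2 and HG3. SPRY1, at 0 to 74 counts per library, had a 95% interval of its response over the 3 lines that reached 2-fold in both directions.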

Other observations

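Each gene of at least 1 CPM was compared with the ERK feedback genes over the 18 libraries, and the gene with the highest Pearson r of log2 CPM among 13991 is given as a description. The 18 points share lines, replicate numbers and treatments. FRY was most like DUSP10 (0.984), IPCEF1 most like SPRY2 (0.983), SLC12A2 most like SPRED1 (0.966) and FRMD4A most like SPRED2 (0.955). Among the nuclear phosphatases, PIM3 was most like DUSP2 (0.966), FAM83G most like DUSP5 (0.908), GNA13 most like DUSP4 (0.892) and MAP1LC3B most like DUSP1 (0.858). IFITM3 was most like DUSP6 (0.823).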
